A study of Mus musculus with 6 samples.

Results

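The genes described here are 10 of the genes that encode enzymes for the synthesis of serine, asparagine and proline and for the mitochondrial folate cycle. They were chosen by their known function, with earlier results of these data known, out of 54532 genes measured by RNA-seq in bone-marrow-derived macrophages (BMDMs). They are Phgdh, Psat1 and Psph of serine synthesis, Asns of asparagine synthesis, Shmt2, Mthfd2, Mthfd1l and Aldh1l2 of the mitochondrial folate cycle, and Aldh18a1 and Pycr1 of proline synthesis. BMDMs are macrophages grown from the marrow of mice, here of the C57BL/6 strain, in medium conditioned by L929 cells. The 6 libraries form 3 groups of 2. They are untreated BMDMs (Untr), BMDMs stimulated with lipopolysaccharide, a component of the bacterial outer membrane, at 100 ng/ml for 2 h (LPS), and BMDMs that received 5 mM metformin, a drug given for type 2 diabetes, for 6 h ahead of that stimulation (Met + LPS). No group with metformin alone is among them, so a response to metformin can only be read against LPS-stimulated cells. Per the study's methods the cells were plated in duplicate, and neither the labels nor the methods say whether replicates 1 and 2 come from separate mice, so the p-values measure only the spread between these libraries, which may be technical.

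Serine is made from an intermediate of glycolysis in 3 enzymatic steps. In mitochondria its side chain carbon is passed to tetrahydrofolate, the carrier that brings such carbon units to purine, thymidylate and methionine synthesis and that can release them as formate. Asparagine and proline are made from aspartate and glutamate. Transcription of many of these genes is known to rise through the factor ATF4 when amino acids run short or mitochondria are stressed, in what is called the integrated stress response.

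Values are TPM (reads of a gene over its length, as a share of the library). Since the length is divided out, levels of different genes can be set side by side. TPM add up to the same total in every library, so the value of a gene also depends on the other genes. Recovered from the TPM values, the depth was 25457011 to 30762749 reads per library. Expression was tested with limma on log2(TPM + 1) for the 12755 genes that reached 1 TPM in 2 or more libraries, with Benjamini-Hochberg adjustment over all of them. A gene was counted as changed when its adjusted p-value was under 0.01 and its log2 fold change reached 2 for LPS vs. Untr or 0.7 for the comparisons with Met + LPS. Of the 10 genes, 9 were tested. Aldh1l2 was tested only because its Met + LPS libraries were above 1 TPM, and Pycr1 remained under the minimum. With 2 libraries against 2, an exact permutation test cannot give a two-sided p below 0.333 for a single value. The 8 macrophage markers were present in all groups, with a summed level of 44600 to 46600 TPM in Untr, 37400 to 37900 TPM in LPS and 30900 TPM in both Met + LPS libraries. Most of the sum was Lyz2, with mean TPM of 34900 in Untr, 26800 in LPS and 21300 in Met + LPS. For LPS vs. Untr the median log2 fold change of the 8 depended on the scale. It was -0.28 as deposited and 0.25 after each library was divided by its median ratio to the others. The markers of lymphocytes, erythroid cells and fibroblasts each summed to less than 1 TPM in every library, and 4 dendritic cell markers to 0.537 to 0.676 TPM in Untr, 2.2 to 2.4 TPM in LPS and 2.12 to 2.8 TPM in Met + LPS. In bulk RNA, fewer cells of a type and less RNA per cell cannot be told apart.

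In Met + LPS, 7 of the 9 tested genes rose against LPS and 0 fell, while 8.28% of all tested genes changed, 4.19% upward and 4.09% downward. The genes that rose were Asns, Phgdh, Mthfd2, Aldh18a1, Psph, Shmt2 and Aldh1l2, by log2 fold changes of 2.46 for Asns down to 1.06 for Aldh1l2. Aldh1l2 passed the minimum on TPM only through Met + LPS, where it is high, so it had to differ, and without it the count is 6 of 8. Mthfd1l and Psat1 did not pass. The median log2 fold change was 1.30 over the 9 genes and -0.03 over all tested genes. Of the 8 macrophage markers, 1 was lower by the same test, Fcgr1, whose mean TPM was 165 in LPS and 74.4 in Met + LPS (log2 fold change -1.14, adjusted p = 5.1e-05). Of the 8, 6 had an unadjusted p under 0.05, and their median was -0.34. For counts at this unadjusted p, here and below, the share of all tested genes is not given. They cannot be read as more or fewer than usual. Among the other markers, the summed level of 6 neutrophil genes was 40.8 to 42.4 TPM in Met + LPS, 24.5 to 26.2 TPM in LPS and 27.7 to 30.9 TPM in Untr, with 2 of the 6 below 1 TPM in every library and Ly6g at 0 in every library but a Met + LPS one. That of 3 endothelial genes, nearly all of it Kdr, was 32.5 to 34.2, 21.4 to 23.7 and 26.1 to 27.3 TPM, while Cdh5 and Pecam1 remained below 0.3 TPM. Their part in the result was not tested.

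**Figure D1:**
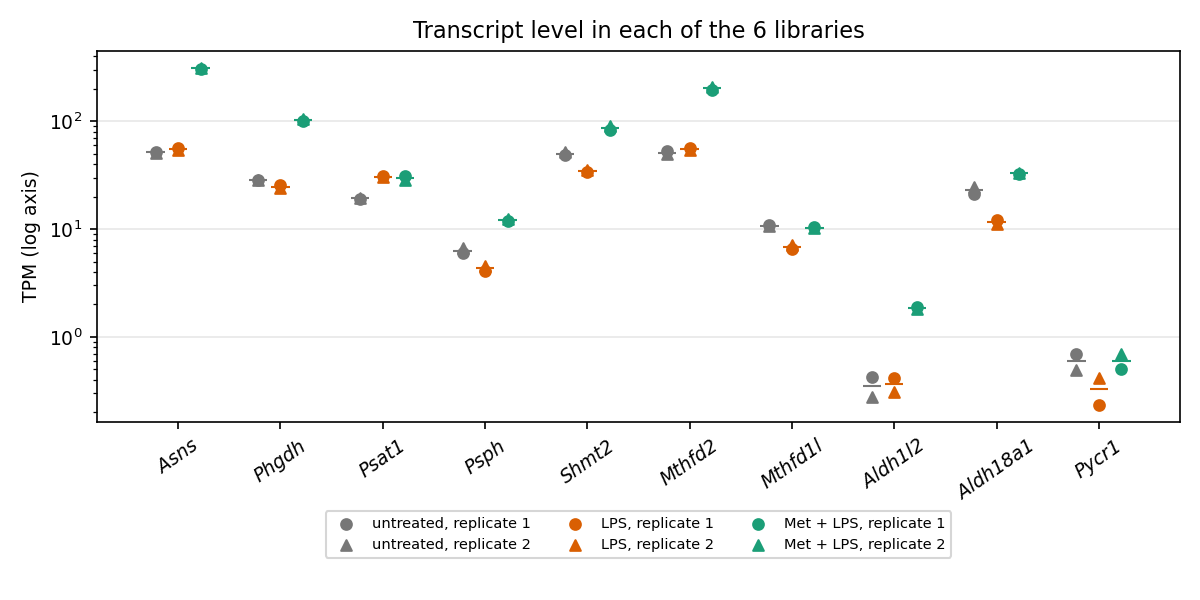
TPM of the 10 genes in each library on a log axis, with a circle for replicate 1, a triangle for replicate 2 and a line at the mean of each group of 2. In Asns, Phgdh and Mthfd2 the Met + LPS points stand far above the others, while in Psat1 they lie among the LPS points and in Pycr1 they lie below 1 TPM.

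Asns encodes asparagine synthetase, which makes asparagine from aspartate with glutamine as the nitrogen donor. It lies on the minus strand of chromosome 6 (ENSMUSG00000029752, GRCm38, 7675169 to 7693254). Its level was 52.3 and 50.4 TPM in Untr, 56.9 and 53.6 TPM in LPS, and 303 and 314 TPM in Met + LPS. The Met + LPS libraries stood well apart, and every other library lay between 50.4 and 56.9 TPM. The mean of LPS was 55.2 ± 2.38 TPM (SD, n = 2), and that of Met + LPS, 309 ± 7.64 TPM, was 5.59 times as high. The log2 fold change was 2.46 (SE 0.044, adjusted p = 3.3e-06), at rank 12 of the 12755 tested genes from the highest. In Met + LPS, Asns also had the highest level of the 10 genes.

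Promoter sequence of 9 of the 10 genes was taken from RefSeq (GRCm38.p6), from 250 bases before the start to 50 bases after it. The sequences were searched on both strands for TGATGNAA, the core of the amino acid response element that ATF4 binds, and for CCAAT, the letters of the CCAAT box. TGATGNAA was found in 2 of the 9 genes, Asns and Pycr1, and in 4.51% of the 27025 genes with such a sequence. These 2 genes had the largest response and almost no expression, respectively, and 30 bases around each match are printed on the gene's strand, 5′ to 3′, with the match in capitals. The Asns window is chr6:7693214-7693243 on the minus strand, with the match 23 bases before the RefSeq start and inside an exon of the longer gene model of the GENCODE annotation. The Pycr1 window is chr11:120643833-120643862 on the minus strand, 103 bases before the start and outside the gene.
Asns: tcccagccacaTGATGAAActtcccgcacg
Pycr1: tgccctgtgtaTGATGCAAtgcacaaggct
CCAAT was found in 5 of the 9 genes (Phgdh, Psph, Mthfd2, Pycr1 and Psat1) against 41.1% of all genes. The match nearest to the Phgdh start is shown with one of Mthfd2, since these genes follow Asns in the size of the change. Mthfd2 has matches nearer to its start, at 47 and 22 bases before it, that are not printed. Psat1, which did not rise in Met + LPS vs. LPS, holds the motif as well. The Phgdh window is chr3:98339974-98340003 on the minus strand, with the match 23 bases before the RefSeq start and across the start of the GENCODE gene model, and the Mthfd2 window is chr6:83317682-83317711 on the minus strand, with the match 96 bases before the start in an intron of the longest gene model.
Phgdh: agcatttctgaCCAATcaaaaggagactgt
Mthfd2: gactccttcagCCAATcaggacctgctcct
No match of one motif overlapped a match of the other in these genes. A match describes the letters of the window and says nothing of whether a factor is bound there.

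The 3 enzymes of serine synthesis act in sequence, yet their transcripts did not respond alike. Phgdh encodes the first enzyme, phosphoglycerate dehydrogenase, and lies on chromosome 3 (ENSMUSG00000053398, 98313170 to 98339990, minus strand). Phgdh was at 28.7 and 28.7 TPM in Untr, 25.7 and 23.8 TPM in LPS, and 100.0 and 105 TPM in Met + LPS. The groups did not overlap, and LPS was the lowest. The mean of 102 ± 3.41 TPM in Met + LPS was 4.13 times that of LPS, a log2 fold change of 2.00 (SE 0.051, adjusted p = 4.8e-06) at rank 34 of the tested genes. Phgdh has processed copies elsewhere in the genome, and only 43.7% of its 31-base stretches occur in no other gene, so its counts are uncertain where reads could have been split. The 25 sharing genes found in the data summed to at most 0.999 TPM in any library.

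Psat1, on chromosome 19 (ENSMUSG00000024640, 15904678 to 15947337, minus strand), encodes phosphoserine aminotransferase, the enzyme of the middle step. Its level was 19.0 and 19.6 TPM in Untr, 30.8 and 30.3 TPM in LPS, and 31.3 and 28.8 TPM in Met + LPS. The LPS libraries lay between the Met + LPS libraries, and both groups lay above Untr. The log2 fold change of Met + LPS vs. LPS was -0.03 (SE 0.054, adjusted p = 0.73), with a 95% confidence interval from -0.16 to 0.10. The interval of Phgdh in the same comparison did not reach below 1.88.

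Psph, on chromosome 5 (ENSMUSG00000029446, 129765558 to 129787449, minus strand), encodes phosphoserine phosphatase, which releases serine. Psph was at 5.98 and 6.64 TPM in Untr, 4.10 and 4.56 TPM in LPS, and 11.8 and 12.4 TPM in Met + LPS. The groups again did not overlap, with LPS at the bottom. The mean in Met + LPS was 2.80 times that in LPS, a log2 fold change of 1.30 (SE 0.082, adjusted p = 6.2e-05). Of the exon bases of Psph, 10.4% overlap a transcript of Cct6a on the other strand, a gene at 129 to 141 TPM in all libraries, and whether the authors' counting used the strand is not given in the sources used here.

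The unlike response of these genes is visible within each library, where the scaling cancels. The ratio of Phgdh to Psat1 was 1.51 and 1.47 in Untr, 0.834 and 0.786 in LPS, and 3.19 and 3.64 in Met + LPS. By TPM, Psat1 was thus the more abundant of the pair in LPS libraries, and in the other groups Phgdh was. Of the 31-base stretches, 43.7% occur in no other gene for Phgdh and 97.8% for Psat1. If reads of shared stretches were not counted, Phgdh is understated, so the order of the pair in LPS is uncertain. Phgdh to Psph had mean ratios of 4.56 ± 0.327 in Untr, 5.75 ± 0.748 in LPS and 8.44 ± 0.0258 in Met + LPS (SD, n = 2). The pairs of serine genes were chosen after their values were seen.

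Of the 4 mitochondrial folate genes, Shmt2 and Mthfd2 rose in Met + LPS, where 4.19% of all tested genes rose, and so did Aldh1l2, on few reads and with a call that depended on single libraries. Shmt2, on chromosome 10 (ENSMUSG00000025403, 127517123 to 127522444, minus strand), encodes the serine hydroxymethyltransferase that splits serine into glycine and a folate-bound carbon unit. Its level was 48.4 and 51.9 TPM in Untr, 34.1 and 35.1 TPM in LPS, and 82.7 and 89.8 TPM in Met + LPS. LPS libraries were the lowest and Met + LPS libraries the highest, with no overlap. The ratio of Met + LPS to LPS was 2.49, and the log2 fold change was 1.29 (SE 0.057, adjusted p = 2.0e-05).

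Mthfd2, on chromosome 6 (ENSMUSG00000005667, 83305691 to 83325908, minus strand), encodes the mitochondrial methylenetetrahydrofolate dehydrogenase and cyclohydrolase, which oxidizes that unit. Mthfd2 was at 52.8 and 49.6 TPM in Untr, 56.1 and 54.1 TPM in LPS, and 196 and 208 TPM in Met + LPS. As with Asns, Untr and LPS lay close together and Met + LPS far above them. The mean of 202 ± 8.05 TPM was 3.67 times that of LPS, a log2 fold change of 1.85 (SE 0.048, adjusted p = 5.1e-06) at rank 41.

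Mthfd1l, on the plus strand of chromosome 10 (ENSMUSG00000040675, 3973118 to 4167081), encodes the mitochondrial formyltetrahydrofolate synthetase, which releases the unit as formate. Its level was 10.8 and 10.7 TPM in Untr, 6.55 and 7.17 TPM in LPS, and 10.5 and 10.2 TPM in Met + LPS. Met + LPS libraries were above LPS and just under Untr. The difference from LPS was larger than the spread between libraries (log2 fold change 0.53, SE 0.066, adjusted p = 9.3e-04), but its 95% interval, 0.37 to 0.69, remained below the fold change of 0.7 asked for.

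Aldh1l2, on chromosome 10 (ENSMUSG00000020256, 83487450 to 83534140, minus strand), encodes the mitochondrial formyltetrahydrofolate dehydrogenase, which oxidizes the unit to CO2 and yields NADPH. It was near the limit of detection outside Met + LPS, at 0.421 and 0.279 TPM in Untr, 0.420 and 0.310 TPM in LPS, and 1.89 and 1.81 TPM in Met + LPS. These levels rest on 24 and 15, 24 and 17, and 107 and 120 reads. The ratio of the Met + LPS and LPS means was 5.06, close to that of Asns, while the log2 fold change on the scale with 1 TPM added was 1.06 (SE 0.148, adjusted p = 0.0015), and limma voom on the recovered reads gave 2.32. The adjusted p rose above the threshold when LPS replicate 2 (adjusted p = 0.0103), Met + LPS replicate 1 (0.0137) or Met + LPS replicate 2 (0.0120) was left out, with the log2 fold change at most 1.08. Of its exon bases, 14.1% overlap D10Wsu102e on the other strand, a gene at 0.868 to 0.913 TPM in LPS and 0.712 to 0.734 TPM in Met + LPS.

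**Figure D2:**
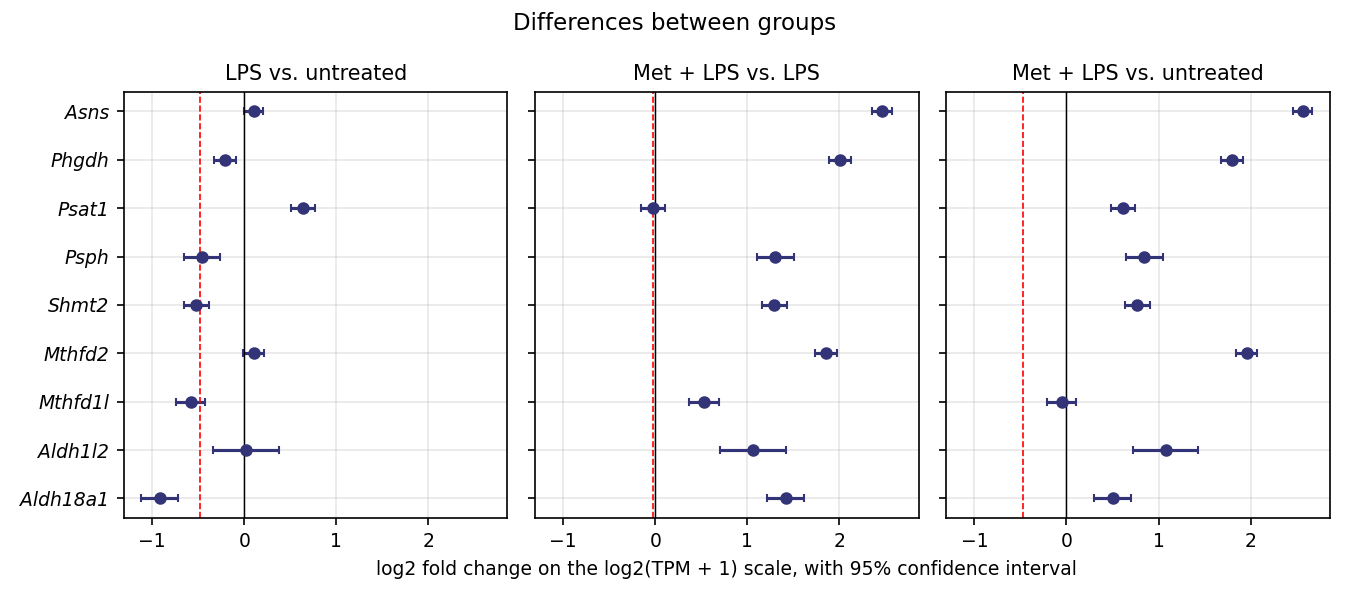
Log2 fold changes on the log2(TPM + 1) scale of the 9 tested genes in the 3 comparisons, with bars for the 95% confidence interval of limma and a dashed red line at the median of all tested genes. Asns is the highest in Met + LPS vs. LPS at 2.46, and the interval of Psat1 spans 0 there.

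The proline pair differed in level. Aldh18a1, on chromosome 19 (ENSMUSG00000025007, 40550257 to 40588463, minus strand), encodes the synthase that turns glutamate into the precursor of proline. Its level was 21.1 and 24.7 TPM in Untr, 12.2 and 11.1 TPM in LPS, and 32.5 and 33.0 TPM in Met + LPS. LPS libraries stood lowest and the 3 groups did not overlap. Met + LPS was 2.81 times LPS, a log2 fold change of 1.42 (SE 0.084, adjusted p = 5.0e-05). Pycr1, on chromosome 11 (ENSMUSG00000025140, 120635712 to 120643769, minus strand), encodes a mitochondrial reductase of the last step. It was at 0.702 and 0.497 TPM in Untr, 0.234 and 0.418 TPM in LPS, and 0.504 and 0.689 TPM in Met + LPS, on 7 to 24 reads a library. Both Met + LPS values lay above both LPS values, with a ratio of means of 1.83, and overlapped those of Untr. Without the minimum on TPM the log2 fold change of Met + LPS vs. LPS was 0.27 (limma, adjusted p = 0.227), so a difference was not detectable at this depth.

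The order of the levels changed between groups. In Untr, Asns, Mthfd2 and Shmt2 (means 51.3, 51.2 and 50.1 TPM) had overlapping ranges at the top, followed by Phgdh, Aldh18a1, Psat1, Mthfd1l and Psph. In LPS, Asns and Mthfd2 overlapped at 55.2 and 55.1 TPM, and Shmt2 followed at 34.6 TPM. Psat1 was above Phgdh by TPM, an order left uncertain by the shared sequence of Phgdh. In Met + LPS no neighbours in the order overlapped, from Asns, Mthfd2, Phgdh and Shmt2 to Aldh18a1, Psat1, Psph, Mthfd1l, Aldh1l2 and Pycr1.

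LPS by itself moved most of these genes less by fold change than Met + LPS differed from LPS. Exceptions as deposited were Psat1 (0.64 against -0.03) and Mthfd1l (-0.58 against 0.53). Of the 9 tested, 0 passed for LPS vs. Untr at the log2 fold change of 2, while 6.08% of all tested genes did (3.72% higher, 2.37% lower). By limma, 6 of the 9 had an unadjusted p under 0.05, a count without the share of all tested genes beside it. Voom on the recovered reads also called 0. At the lower cut-off of 0.7, only Aldh18a1 passed, lower in LPS, against 44.4% of all tested genes, 33.8% lower and 10.6% higher. That imbalance depended on the scale of the libraries. The median log2 fold change over all tested genes was -0.48 for LPS vs. Untr, and dividing each library by its median ratio to the others brought it to -0.01, with 31.3% changed, 16.8% higher and 14.5% lower. Directions for LPS vs. Untr are therefore given on both scales.

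Psat1 was the member furthest above the other genes after LPS alone. Its mean was 19.3 ± 0.362 TPM in Untr and 30.6 ± 0.404 TPM in LPS (SD, n = 2), a ratio of 1.58. The log2 fold change was 0.64 (adjusted p = 4.2e-05) as deposited and 1.15 after rescaling, where it alone of the 9 genes passed the cut-off of 0.7. Asns (0.10) and Mthfd2 (0.10) had adjusted p-values of 0.0652 and 0.0827 as deposited, and both came to 0.63 after rescaling. Aldh18a1 was at 0.509 times its untreated level, with a log2 fold change of -0.92 (adjusted p = 6.1e-05) that was -0.41 after rescaling (adjusted p = 0.00387). The remaining lower values depended on the scale. Mthfd1l went from -0.58 to -0.10, Shmt2 from -0.52 to 0.00 and Psph from -0.46 to -0.01. Phgdh turned from -0.21 (adjusted p = 0.00765) to 0.31 (adjusted p = 0.00152). Aldh1l2 was at 0.02 with an adjusted p of 0.919.

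Against untreated cells, 6 of the 9 tested genes were higher in Met + LPS and 0 lower, while 46.1% of all tested genes changed, 10.1% upward and 35.9% downward. The 6 were Asns (log2 fold change 2.56), Mthfd2 (1.96), Phgdh (1.80), Aldh1l2 (1.08), Psph (0.85) and Shmt2 (0.77), or 5 of 8 without Aldh1l2. The study gives no cut-off for this pair of groups, and that of the metformin comparison was used. By limma on the values as deposited, only Asns reached the log2 fold change of 2 asked of LPS vs. Untr. On the rescaled values Asns (3.11), Mthfd2 (2.5) and Phgdh (2.33) reached it. By voom on the recovered reads, Asns and Aldh1l2 (2.41) did. After rescaling, 33% of all tested genes changed, 17.7% were higher and 15.3% lower, and Psat1 (from 0.61 to 1.14) and Aldh18a1 (from 0.50 to 1.03) passed as well, which made 8 of 9. Mthfd1l was level with Untr as deposited, at -0.05 (limma, adjusted p = 0.497). After rescaling it was above Untr, at 0.45 (limma, adjusted p = 8.8e-04), but short of the cut-off. The LPS libraries are shared by LPS vs. Untr and Met + LPS vs. LPS, and the Untr and Met + LPS libraries likewise enter more than one comparison, so the values are not independent.

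For most steps of the folate cycle and for proline there is a related enzyme encoded by another gene, usually in the cytosol, and among those described here none passed as higher under either scaling. Of 5 such genes described here, 0 were higher and 1 was lower in Met + LPS vs. LPS by limma. Of these, 2 had an unadjusted p under 0.05, and voom also called 1. The gene that fell was Aldh1l1, the cytosolic counterpart of Aldh1l2, whose mean TPM was 19.1 in Untr, 13.3 in LPS and 6.76 in Met + LPS (log2 fold change -0.89, adjusted p = 1.6e-04). Shmt1 and Mthfd1, the cytosolic counterparts of Shmt2 and of the mitochondrial dehydrogenase and synthetase, had mean TPM of 1.69 and 15.8 in LPS and of 2.17 and 15.8 in Met + LPS, with log2 fold changes of 0.23 and 0.01. Mthfd2l, a mitochondrial relative of Mthfd2, was at 1.80 and 1.65 TPM (-0.07). Pycrl, which encodes a reductase of the last proline step, had a mean TPM of 20.3 in LPS and of 13.9 in Met + LPS. Its log2 fold change of -0.51 had an adjusted p-value of 3.5e-04 but was short of the cut-off.

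The ratio of each mitochondrial folate gene to its relative in the same library was therefore larger in Met + LPS. Shmt2 to Shmt1 was 10.7 and 11.6 in Untr, 19.0 and 22.1 in LPS, and 41.8 and 38.1 in Met + LPS. Mthfd2 to Mthfd1 was 1.95 and 1.71 in Untr, 3.86 and 3.19 in LPS, and 12.5 and 13.0 in Met + LPS. In both pairs the 3 groups did not overlap and LPS lay in between. Mthfd2 to Mthfd2l had means of 32.4 ± 0.694 in Untr, 30.9 ± 4.41 in LPS and 122 ± 3.58 in Met + LPS, so that only the last stood apart. Aldh1l2 to Aldh1l1 went from 0.0274 ± 0.00591 in LPS to 0.274 ± 0.0191 in Met + LPS, and Mthfd1l to Mthfd1 from 0.436 ± 0.0194 to 0.653 ± 0.0183 (SD, n = 2).

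**Figure D3:**
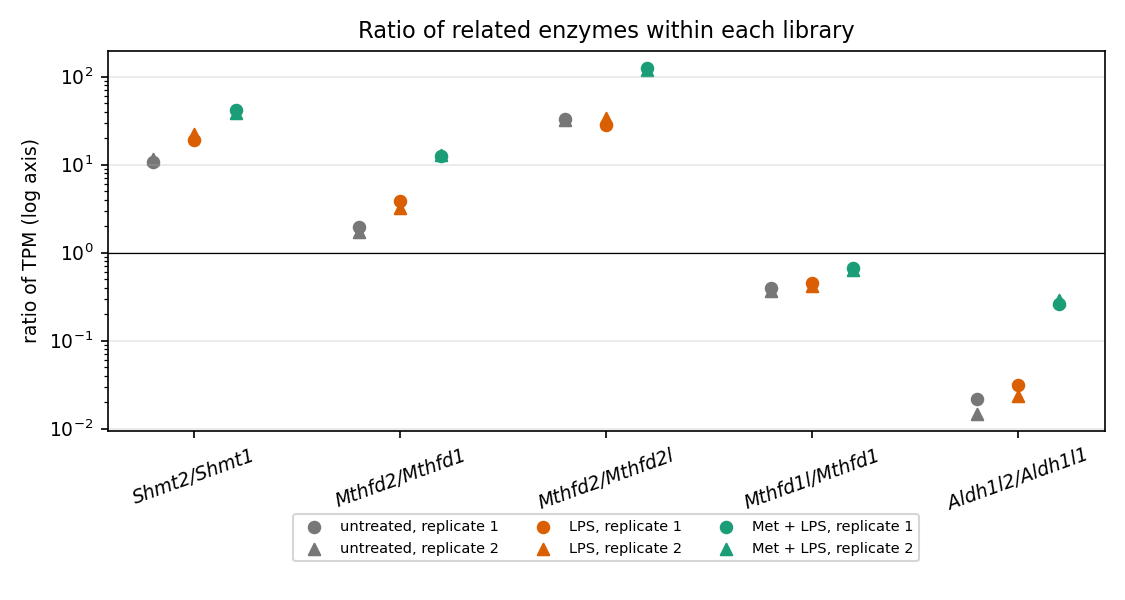
Ratio of TPM within each library, on a log axis, for 5 pairs of a described gene and a related gene, with a circle for replicate 1, a triangle for replicate 2, and the 3 groups side by side in colour. Shmt2 to Shmt1 steps up from a mean of 11.1 in Untr to 20.6 in LPS and 40.0 in Met + LPS, while Mthfd2 to Mthfd2l is alike in Untr and LPS (32.4 and 30.9) and at 122 in Met + LPS.

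Lists of genes around these enzymes are given for Met + LPS vs. LPS, with calls to be read against the 8.28% of all tested genes that changed. The counts at an unadjusted p under 0.05 have no such share beside them. Of 9 tested genes of purine synthesis, a main use of folate-bound carbon, 0 passed by limma or by voom, with 3 at an unadjusted p under 0.05 and a median log2 fold change of 0.06. The 3 tested genes of the glycine cleavage system and 5 genes that use serine had 0 calls by either tool, with 2 and 1 genes at an unadjusted p under 0.05. Of 5 tested genes of methionine metabolism, Mtrr, which reactivates methionine synthase, rose (0.79, adjusted p = 1.8e-04). The transsulfuration genes of that list, Cbs and Cth, were under the minimum on TPM and were not tested. Cth was at 0.282 and 0.344 TPM in LPS and at 0.995 and 1.34 TPM in Met + LPS. Cbs was at most 0.082 TPM in these libraries. Of 10 genes of proline, glutamate and aspartate metabolism, the transaminase genes Gpt2 (0.95) and Got1 (0.75) rose and Glul, for glutamine synthetase, fell (-0.82) by limma. By voom the calls were 4, the other being Prodh, for the first enzyme of proline breakdown, which was lower (mean TPM 0.842 in LPS and 0.316 in Met + LPS) but did not pass by limma (-0.48, adjusted p = 0.0428). The regulators of the integrated stress response were the list with the most calls, with 8 of 12 higher and 0 lower and a median of 0.89. They included the pseudokinase gene Trib3 (3.47) and the transcription factor genes Ddit3 (1.86), Atf5 (1.64) and Cebpg (1.21). Mean TPM in Untr, LPS and Met + LPS was 45.9, 13.3 and 50.9 for Ddit3. For Cebpg it was 43.6, 18.0 and 42.9, for Gpt2 12.1, 6.05 and 12.6, and for Got1 126, 68.2 and 115. As deposited, these genes were lower in LPS than in Untr, and in Met + LPS they were near their Untr level. After rescaling, Met + LPS lay above Untr, by 0.68 for Ddit3, 0.56 for Gpt2, 0.51 for Cebpg and 0.42 for Got1. By limma the adjusted p-values were at most 6.6e-04, but the log2 fold changes were short of the cut-off of 0.7. Mtrr, at 15.6, 4.9 and 9.22 TPM, remained below its Untr level as deposited (-0.70). After rescaling it was at -0.19 (limma, adjusted p = 0.0335). Trib3 (17.8, 4.57 and 60.5 TPM) and Atf5 (72.3, 70.9 and 222 TPM) were above their Untr level on both scales.

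**Figure D4:**
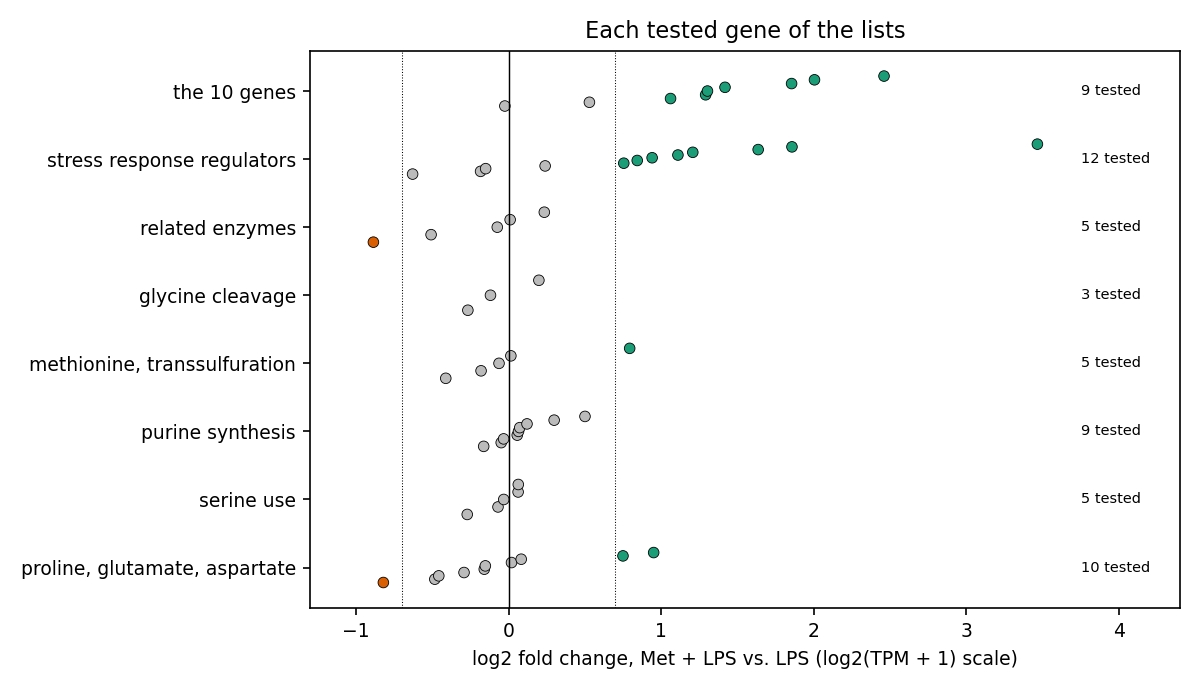
Log2 fold changes of Met + LPS vs. LPS for each tested gene of the described genes and of the neighbouring lists, with a point per gene, green for those that rose, orange for those that fell and grey for the others, and dotted lines at 0.7 and -0.7. Of the described genes 7 of 9 and of the stress response regulators 8 of 12 are green, while all 9 purine synthesis genes are grey.

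Among all other tested genes, those with a profile most like the mean standardised profile of the 9 genes over the 6 libraries were Aars (Pearson r = 0.9997), Tars, Dusp8, Gars, Iars, Cars, Gm30329 and Gm26917 (0.9972). Of these 8, 5 encode aminoacyl-tRNA synthetases, the enzymes that load amino acids onto tRNA. The correlation is a description over 6 libraries in 3 groups, in which the high values of the Met + LPS libraries carry most of the likeness. Among the described genes themselves, r with the mean profile was 0.995 for Phgdh, 0.981 for Psph and 0.971 to 0.975 for Asns, Aldh1l2, Mthfd2 and Shmt2. It was 0.869 for Aldh18a1, 0.582 for Mthfd1l and 0.299 for Psat1. Each described gene is part of that mean, which raises its r, so these values cannot be compared with those of the other genes.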

How the data were processed

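Poly-A RNA of 6 BMDM libraries was sequenced. Per the labels and the study's methods, the authors aligned reads to GRCm38 with STAR 2.6.1d, counted them per gene with featureCounts of Subread 1.6.3, and deposited TPM for 54532 genes without pooling replicates. How counts became TPM is not given in the sources used here. TPM × exon length (GENCODE M21) was a whole number of reads, within 0.05 read, for 97.2% to 97.5% of values below 1000 reads, which gave the depth. The authors tested counts with DESeq2, and their cut-offs were used for LPS vs. Untr and Met + LPS vs. LPS. For Met + LPS vs. Untr, for which they give none, 0.7 was used.

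Genes with TPM of 1 or more in 2 libraries were fitted with limma 3.58.1 (R 4.3.3, lmFit, eBayes with trend) on log2(TPM + 1), all 6 libraries together, without covariates. Fold changes on this scale understate those of low genes. On reads simulated for Met + LPS vs. LPS (12405 genes), the fit recovered 76 of 100 genes changed 2-fold and 83 of 100 changed 4-fold, with 5 false calls. Voom recovered 87 and 91, with 1 false call. The simulation gave every gene the same setting of the spread and set no difference between Untr and LPS. It therefore does not give the sensitivity on the measured libraries. Ratios and promoter searches used Python 3.11.15 with pandas 2.3.3. All 10 genes, the listed related genes with up to 4 called genes per list, the untested Cbs and Cth, and the 8 genes of most similar profile are named. The members and lists were chosen with earlier results of these data known. Alternatives were another pseudocount, filter, scaling, cut-off, spread model or set of libraries. The voom test and the rescaled lower cut-off were chosen after seeing the data. For 2 of the listed genes results are not reported here, and they and the list of other folate genes were left out of the counts and plots.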

Additional observations from a re-analysis of the deposited data

How the results depend on the processing

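For the numbers of called genes and called members, 90 of the alternative values kept within 1.5 times the main count and 8 did not. Genes called for LPS vs. Untr went from 776 to 1512 with a pseudocount of 0.1, 1596 with voom on the recovered reads, 5663 with a cut-off of 0.7, and 3989 with rescaling and that cut-off, under which the called members went from 0 to 1 in both cases. With a cut-off of 1, genes called went from 1056 to 455 for Met + LPS vs. LPS and from 5877 to 3714 for Met + LPS vs. Untr. Among single genes, 364 values kept their direction and side of the threshold. Rescaling turned the log2 fold change of Phgdh to 0.31 and that of Shmt2 to 1e-04 for LPS vs. Untr, and that of Mthfd1l to 0.45 for Met + LPS vs. Untr, and it carried Psat1 (1.14) and Aldh18a1 (1.03) past the cut-off there. Without Untr replicate 2 or LPS replicate 1, Aldh1l2 in LPS vs. Untr was below 0, and over the libraries left out it ranged from -0.0585 to 0.093. Without Met + LPS replicate 2, Psat1 in Met + LPS vs. LPS was above 0, with a range of -0.0846 to 0.034. The cause was not tested. Leaving out each library gave 6 to 7 called members for Met + LPS vs. LPS, where only the call of Aldh1l2 was lost, 6 for Met + LPS vs. Untr and 0 for LPS vs. Untr.

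Whether the replicate numbers pair the samples is not given by the labels, and they were treated as unpaired. The differences between replicates 1 and 2 of the groups correlated at -0.004 to 0.028 over genes. No shift shared by same-numbered libraries was thus seen, which cannot show that the samples were unpaired. With the replicate number as a block, 7, 6 and 0 members and 1044, 5868 and 777 genes were called for Met + LPS vs. LPS, Met + LPS vs. Untr and LPS vs. Untr. Depth limits Pycr1 and Aldh1l2, at 7 to 24 reads outside Met + LPS.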
